A study of Mus musculus with 6 samples.

Results

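The genes of the translation initiation factors (eIF) and elongation factors (eEF) were examined in endothelial cells sorted from embryonic mouse hearts that had normal, reduced or no Dll4, the gene of a Notch ligand. Members were all protein-coding genes whose symbol begins with Eif or Eef and a digit, with the sex-linked pair Eif2s3y and Eif2s3x left out. They came to 65 of the 41214 gene identifiers in the expression table. Of these, 61 were among the 10952 genes abundant enough to be tested. The remaining 4 were Eef1a2, Eif4ebp3 and Eef1akmt3, which reached at most 4.26 CPM (depth-scaled counts) in any library, and Eif4e1b, which had no count in any library.

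The study compared coronary endothelial cells that differ in Dll4 dose while arteries form. KO embryos came from a cross of Dll4 flox/flox parents and lost both copies of Dll4, het embryos inherited 1 floxed copy, and wt embryos carried none. Embryos of all 3 groups carried Pdgfb-iCreERT2-IRES-EGFP, which drives a tamoxifen-inducible Cre and green fluorescent protein from Pdgfb sequences, and all were exposed to tamoxifen at E13.5 (embryonic day), so the wt group also had active Cre. Hearts were taken at E14.5 from several litters, cells positive for CD31 and green fluorescence were sorted, and each group gave 2 libraries, KO replicates 1 and 2, het replicates 2 and 3, and wt replicates 4 and 5. The labels do not say whether the 2 libraries of a group came from separate litters, so p-values measure only the spread between these libraries.

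Initiation factors bring the initiator methionyl-tRNA, the small ribosomal subunit and the mRNA together and place the ribosome on a start codon. The eIF4 factors bind and unwind the capped end of the mRNA, eIF3 is the large scaffold on the small subunit, and eIF2 carries the initiator tRNA and is recharged by the exchange factor eIF2B. Kinases that phosphorylate the alpha subunit of eIF2 slow initiation during stress, and the eIF4E binding proteins hold back the cap-binding protein until the growth kinase mTORC1 releases them. The elongation factors eEF1 and eEF2 then deliver aminoacyl-tRNAs and move the ribosome along the message.

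The libraries held between 4988014 and 6501798 counts in KO, 1537908 and 3165552 in het, and 1732136 and 2521534 in wt. Dll4 itself had 19.3 and 13.7 CPM in KO, 80.9 and 85.5 CPM in het, and 195 and 182 CPM in wt, in the order of the labels. The KO libraries differed from the others in makeup. Lars2, a gene that contains sequence resembling ribosomal RNA, took between 0.0572% and 0.0611% of counts in KO, between 16.4% and 17.1% in het, and between 16.3% and 16.7% in wt. The factor genes took between 1.81% and 1.85% of all counts in KO, between 1.54% and 1.60% in het, and between 1.55% and 1.65% in wt, so KO was highest. With Lars2, mitochondrial ribosomal RNA, 7SL and 7SK left out of the total the order turned, with between 1.81% and 1.86% in KO, between 1.92% and 1.98% in het, and between 1.88% and 2.04% in wt. Of 9 endothelial markers all had counts in every library, and their summed level was 4748 to 4870 CPM in KO, 5397 to 5719 CPM in het and 5721 to 5999 CPM in wt. In KO against wt, 2 of the 9 were called higher, 3 lower and 4 not, with a median log2 fold change of 0.02. The lower sum in KO came with Cdh5, the endothelial cadherin, which had 419 and 380 CPM in KO, 1801 and 1902 CPM in het, and 1974 and 1921 CPM in wt. The other 8 summed to 4368 to 4451 CPM in KO, 3595 to 3817 CPM in het and 3800 to 4025 CPM in wt, so that without Cdh5 KO was highest. All 12 cardiomyocyte markers were also detected and summed to 51.9 to 59.0 CPM in KO, 190 to 241 CPM in het and 112 to 125 CPM in wt. Because both KO libraries share this makeup and the labels give no preparation date, a difference in library preparation and the loss of Dll4 cannot be told apart in any KO comparison that follows. In bulk RNA, fewer cells of a type and less RNA per cell cannot be told apart either.

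In KO against wt, 12 factor genes rose, 13 fell and 36 were not called, where a call is an adjusted p under 0.05 after Benjamini-Hochberg correction. Thus 41.0% of the 61 were called, against 32.0% of all 10952 genes (14.7% higher and 17.3% lower). Of the 18 with over 10% of their 50-base stretches also in other genes, 5 rose and 6 fell, 61.1% in all. Of the other 43, 7 rose and 7 fell, 32.6% in all, near the share of all genes. Called genes with over 10% shared included Eif5b (18.2%), Eif3d (18.4%), Eif3h (26.2%) and Eif1ad (15.1%). Whether shared sequence had a part in the calls was not tested. The median log2 fold change of the 61 was 0.03, against -0.02 over all genes, and single genes ranged from -3.47 to 1.30. The libraries of KO lay wholly above those of wt for 22 factor genes and wholly below for 24, where the shares over all genes were 33.2% and 34.5%. The split rested on the scaling: with library size alone, which moves the median of all genes to 0.35, 31 factor genes were called higher and 7 lower, against 35.4% of all genes higher and 9.44% lower. Those 7 were Eif3j1, Eif4ebp2, Eif5b, Eif3f, Eif2s2, Eef1a1 and Eef2, and the lower calls of Eif3a, Eif3i, Eif3h, Eif2a, Eif4a2 and Eef1b2 were lost. Without wt replicate 4, which removes 1 of the 2 wt libraries, fewer factor genes and fewer of all genes were called in each direction. Across the fits that left out 1 library, the median of the factor genes ran from 0.0360 to 0.0554. In no complex of more than 1 gene was every member called. Calls in both directions occurred within eIF2, eIF3 and the eIF4 group. The 5 eEF1 genes gave 2 calls, both lower, but 1 higher and 1 lower with library size alone.

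**Figure D1:**
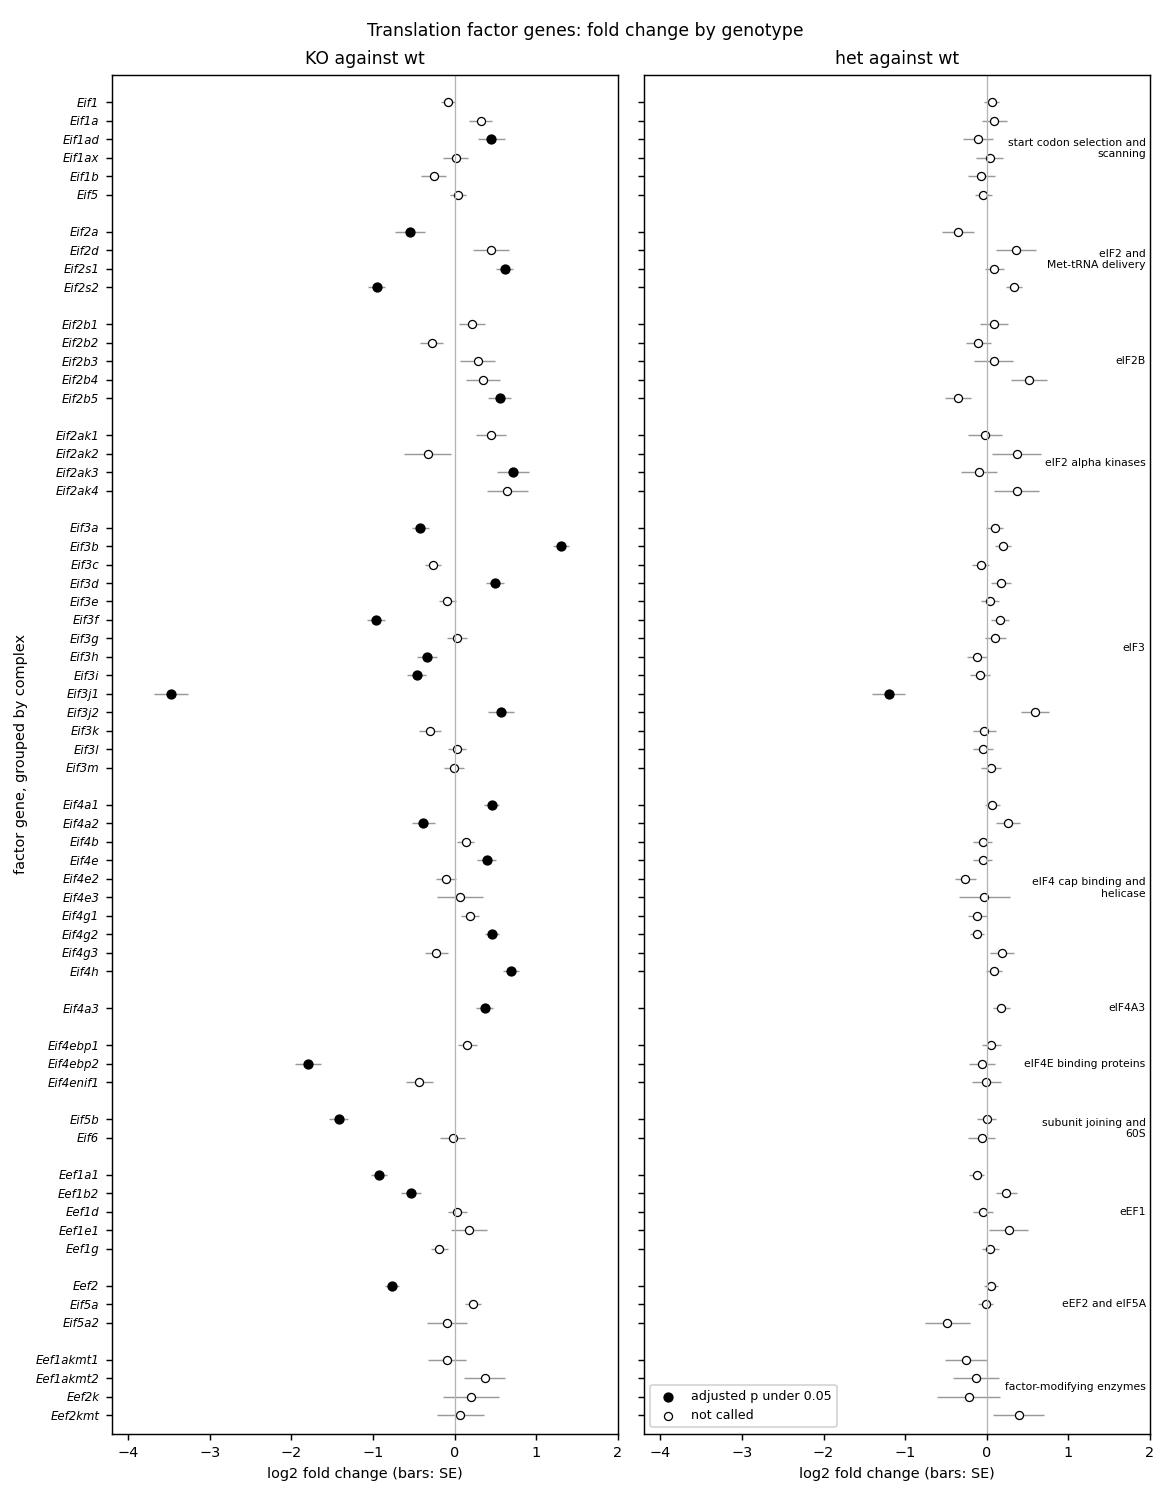
Log2 fold changes of the 61 tested factor genes for KO against wt (left) and het against wt (right), grouped by complex, with bars for the standard error and filled points for an adjusted p under 0.05. On the left 12 filled points lie above 0 and 13 below, and on the right the filled point is Eif3j1.

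The largest change was in Eif3j1, which encodes the loosely bound j subunit of eIF3 near the mRNA channel of the ribosome. It had 6.60 and 8.28 CPM in KO, 39.0 and 33.4 CPM in het, and 78.5 and 86.4 CPM in wt. The 3 groups did not overlap, with KO lowest, het between and wt highest. Eif3j1 was 11.1-fold lower in KO than in wt (log2 fold change -3.47 ± 0.21 SE, adjusted p = 8.58e-11) and 2.30-fold lower in het than in wt (-1.20 ± 0.20, adjusted p = 0.00663). It was also lower in KO than in het (-2.27 ± 0.23, adjusted p = 1.53e-07). Dll4 itself had log2 fold changes of -3.50 in KO against wt and -1.18 in het against wt. The het call was lost without het replicate 3 (-1.08, adjusted p = 0.0677), wt replicate 4 (-1.28, adjusted p = 0.196) or wt replicate 5 (-1.14, adjusted p = 0.125), and kept without het replicate 2 (-1.30, adjusted p = 0.0213).

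Eif3j1 lies on chromosome 2 from 122028546 to 122056598 (GRCm38), 2.69 Mb from Dll4, which spans 119325784 to 119335962. Within 3 Mb of Dll4, Dll4 included, 68 genes were tested. In het against wt, Dll4 and Eif3j1 were the 2 of them called, both lower, where 0.173% of all genes were called. Like that of Eif3j1, the call of Dll4 in this comparison was lost without wt replicate 4 (-1.13, adjusted p = 0.0868). In KO against wt, 13 of the 68 were called higher and 15 lower, 41.2% in all, against 32.0% of all genes. Within 1 Mb, which leaves out Eif3j1, 20 of 35 were called in KO against wt, 57.1%, with 10 in each direction, and in het against wt 1 was, Dll4 itself. Eif2ak4, the gene of the amino acid sensing eIF2 kinase GCN2, lies closer to Dll4, at 0.851 Mb, and did not pass the test. Eif2ak4 had 34.4 and 39.5 CPM in KO, 19.9 and 37.9 CPM in het, and 24.7 and 22.1 CPM in wt (log2 fold change of KO against wt 0.65, adjusted p = 0.0529). It was called higher in 7 of 19 alternatives, among them the fit with only the 2 groups compared (adjusted p = 0.0206), no filter on low counts (0.0147) and library size alone (0.00248), and not with DESeq2 (0.209) or limma-voom (0.0719). At its downstream end Eif3j1 overlaps Spg11 on the opposite strand, and without strand information their reads there cannot be told apart. Spg11 had 18.8 and 11.7 CPM in KO, 14.2 and 18.8 CPM in het, and 17.9 and 20.8 CPM in wt, so its groups overlapped.

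Eif3j2, a copy on chromosome 18 from 43475418 to 43477796 with a near-identical coding sequence, did not follow Eif3j1. It had 91.5 and 103 CPM in KO, 106 and 92.5 CPM in het, and 55.9 and 76.9 CPM in wt. Both KO and both het libraries lay above wt. The KO against wt difference was 0.57 ± 0.16 on the log2 scale (adjusted p = 0.00896). Without KO replicate 2 or wt replicate 4 it lost the call, with adjusted p-values of 0.0763 and 0.198. The het against wt difference of 0.59 ± 0.17 was not called (adjusted p = 0.225), and KO against het was -0.02 ± 0.15 (adjusted p = 0.941).

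The 2 genes share nearly all of their coding sequence, and most of the Eif3j2 message also occurs in Eif3j1. The coding sequence of each was taken as the longest reading frame from an ATG in its longest protein-coding transcript. These frames, of 786 and 792 bases, aligned with 0 differing bases and 6 gap columns. Of the 50-base stretches of the Eif3j2 transcript, 90.8% also occur in Eif3j1, against 39.4% in the reverse direction. Eif3j1 took 6.73% and 7.42% of the reads assigned to the pair in KO, 26.8% and 26.5% in het, and 58.4% and 52.9% in wt. Summed, the pair had 98.1 and 112 CPM in KO, 145 and 126 CPM in het, and 134 and 163 CPM in wt. Counted as 1 gene, a choice made after seeing the data, the pair was still lower in KO than in wt (log2 fold change -0.50, adjusted p = 0.00642) and in KO than in het (-0.36, adjusted p = 0.0445). The het against wt difference of the sum was -0.14 (adjusted p = 0.849). How reads were divided within the pair was not tested.

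**Figure D2:**
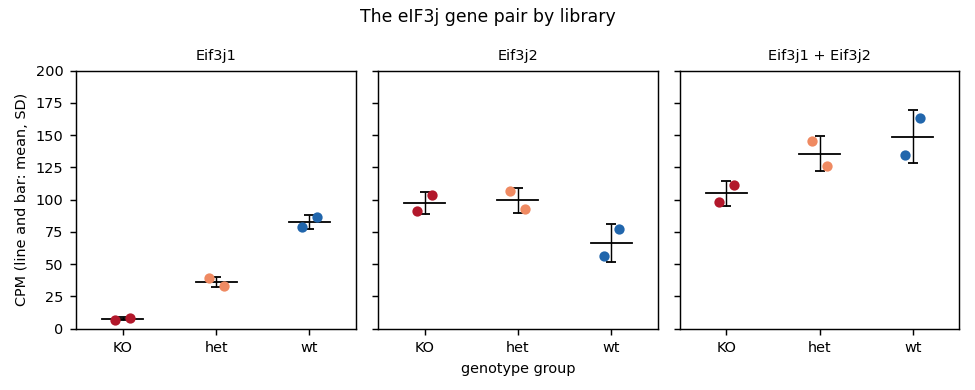
Level in CPM (y axis) of Eif3j1, Eif3j2 and their sum in the 2 libraries of each genotype group (points), with the group mean as a line and the SD as a bar. Eif3j1 steps up over KO, het and wt, Eif3j2 is lowest in wt, and the sum is lowest in KO.

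Among the other eIF3 subunits the changes went in opposite directions. Eif3b, a core scaffold subunit, rose most of all factor genes. It had 502 and 537 CPM in KO, 243 and 241 CPM in het, and 205 and 216 CPM in wt, and KO stood apart from both other groups. The KO level was 2.47-fold that of wt (log2 fold change 1.30 ± 0.10, adjusted p = 3.08e-09). Eif3d, a subunit that can itself bind the cap, rose by less (0.50 ± 0.11, adjusted p = 0.00184).

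Eif3f, a subunit of the outer part of the complex, fell. It had 104 and 104 CPM in KO, 226 and 228 CPM in het, and 198 and 208 CPM in wt, so KO lay below the other groups with no overlap (log2 fold change -0.96 ± 0.11, adjusted p = 9.31e-07). Eif3a, the large core subunit, fell by 0.42 on the log2 scale (adjusted p = 0.00341), a call lost without KO replicate 2 (0.0893) or wt replicate 4 (0.0886) and with library size alone (0.685). The beta-propeller subunit Eif3i fell by 0.47 (adjusted p = 0.00403), a call lost without wt replicate 4 (0.0625) and with library size alone (0.504). Eif3h fell by 0.34 (adjusted p = 0.0349), a call lost without any 1 of the 4 KO and wt libraries (adjusted p between 0.0615 and 0.340) with DESeq2 (0.178), with no filter (0.0927) and with the length trend taken out (0.377), and its log2 fold change was 0.03 with library size alone. Over the 14 tested eIF3 genes, 3 were called higher, 5 lower and 6 were not called. Thus 57.1% were called, against 32.0% of all genes (14.7% higher and 17.3% lower). The summed eIF3 level was 2571 and 2650 CPM in KO, 2814 and 2648 CPM in het, and 2632 and 2686 CPM in wt, with overlapping groups.

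The subunits of eIF2 also moved apart. Eif2s1, the alpha subunit that the stress kinases phosphorylate, rose: it had 244 and 241 CPM in KO, 171 and 168 CPM in het, and 154 and 164 CPM in wt (log2 fold change 0.61 ± 0.11, adjusted p = 1.58e-04). Eif2s2, the beta subunit, fell: it had 165 and 188 CPM in KO, 441 and 426 CPM in het, and 341 and 345 CPM in wt (-0.96 ± 0.10, adjusted p = 3.75e-07). For each of the 2 genes KO did not overlap the other groups. Of the 50-base stretches of Eif2s2, 27.8% also occur in other genes, and adding the reads of its pseudogene copies, a choice made after seeing the data, left the difference at -0.96. Eif2a, which encodes an alternative initiator tRNA carrier distinct from eIF2, fell (-0.55 ± 0.18, adjusted p = 0.026). Without any 1 of the 4 KO and wt libraries that call was lost (adjusted p between 0.0648 and 0.247), as it was with DESeq2 (0.206), with no filter (0.0581), with counts thinned to the smallest library (0.0883) and with library size alone (0.433).

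Of the genes of the exchange factor eIF2B, 1 of 5 was called. It was Eif2b5, the catalytic epsilon subunit, with 111 and 116 CPM in KO, 59.6 and 61.2 CPM in het, and 72.1 and 83.2 CPM in wt (0.55 ± 0.14, adjusted p = 0.00427). KO was highest without overlap. The call was lost without wt replicate 4 (0.49, adjusted p = 0.0773). Of the 4 eIF2 alpha kinases 1 was called, 25.0%, and with 5 and 4 genes neither share can be told apart from 32.0%. The called kinase gene was Eif2ak3, the gene of the endoplasmic reticulum stress kinase PERK. Its libraries had 49.4 and 46.8 CPM in KO, 24.1 and 29.6 CPM in het, and 29.9 and 28.4 CPM in wt, with KO above both other groups (0.72 ± 0.19, adjusted p = 0.00701). Without wt replicate 4 or wt replicate 5 the adjusted p was 0.0517 and 0.0593, with DESeq2 it was 0.0721, and with counts thinned to the smallest library it was 0.0566.

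In the start codon and scanning group 1 of 6 genes was called, 16.7%, against 32.0% of all genes. Eif1ad, an eIF1A domain protein, had 84.6 and 71.8 CPM in KO, 48.2 and 56.7 CPM in het, and 52.0 and 63.7 CPM in wt (0.45 ± 0.17, adjusted p = 0.0423). Its KO libraries were the highest, but the call was lost without KO replicate 1 (adjusted p = 0.266), wt replicate 4 (0.315) or wt replicate 5 (0.0556), and with DESeq2 (0.177). Eif1, Eif1a, Eif1ax, Eif1b and Eif5, which set the stringency of start codon choice, had log2 fold changes from -0.25 to 0.32 and were not called.

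Among the 10 tested genes of the cap-binding and helicase group, 4 were called higher and 1 lower in KO against wt. Over all genes 14.7% were called higher and 17.3% lower. Eif4h, a cofactor of the eIF4A helicase, had 513 and 489 CPM in KO, 322 and 338 CPM in het, and 297 and 324 CPM in wt (0.69 ± 0.10, adjusted p = 1.28e-05). Eif4g2, a scaffold relative of eIF4G that lacks the cap-binding partner site and supports cap-independent initiation, had 1699 and 1730 CPM in KO, 1162 and 1133 CPM in het, and 1256 and 1232 CPM in wt (0.46 ± 0.08, adjusted p = 1.97e-04). Both genes were higher in each KO library than in any other library. Eif4e, the cap-binding protein, rose by 0.39 ± 0.11 (adjusted p = 0.0107), with 205 and 225 CPM in KO, 150 and 165 CPM in het, and 157 and 171 CPM in wt. Its call was lost without KO replicate 2 (adjusted p = 0.113) or wt replicate 4 (0.0989). The helicase Eif4a2 was the member that fell (-0.38 ± 0.14, adjusted p = 0.0438), but this was lost in 11 of 19 alternatives, including each that left out a KO or wt library (adjusted p between 0.0658 and 0.391), DESeq2 (0.208) and limma-voom (0.0544). The main scaffold Eif4g1 was not called (0.19 ± 0.11, adjusted p = 0.212), except with library size alone (6.86e-04). Summed over the group, the level was 4373 and 4405 CPM in KO, 3297 and 3325 CPM in het, and 3398 and 3346 CPM in wt. This sum includes Eif4a1 and leaves out its pseudogene Eif4a-ps4, described next. The pseudogene had no counts in KO and 103 to 188 CPM in the het and wt libraries.

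Eif4a1, the main helicase of the cap-binding complex, was looked at more closely after its values were seen. It had 1024 and 1112 CPM in KO, 797 and 837 CPM in het, and 787 and 770 CPM in wt (0.45 ± 0.09, adjusted p = 4.47e-04). Its processed pseudogene Eif4a-ps4, which contains 64.9% of the 50-base stretches of Eif4a1, had no counts in either KO library, 149 and 173 CPM in het, and 103 and 188 CPM in wt. Against a floor of 3 counts over the KO group, the pseudogene was at least 662-fold lower in KO than in wt, a bound that covers counting error alone.

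The sum of Eif4a1 and Eif4a-ps4 was 1024 and 1112 CPM in KO, 946 and 1011 CPM in het, and 890 and 958 CPM in wt. With the reads of pseudogene copies added to their parent genes, a choice made after seeing the data, Eif4a1 was no longer called in KO against wt (0.21, adjusted p = 0.0822) or KO against het (0.13, adjusted p = 0.318). Of 38 pseudogene copies of 15 factor genes in the table, Eif4a-ps4 was the 1 that exceeded 10 CPM in any library, and every other factor gene named by the rule kept its side of the threshold under that sum. The near-absence of pseudogene reads in KO came with the different makeup of those libraries, and its part in the Eif4a1 difference was not tested beyond the sum.

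**Figure D3:**
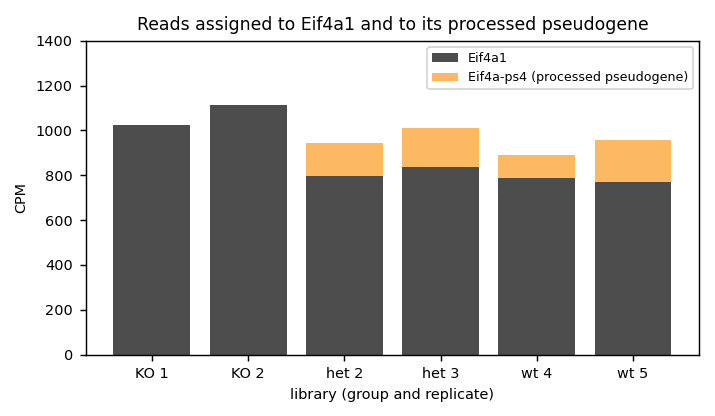
Stacked bars of the CPM assigned to Eif4a1 (dark) and to its processed pseudogene Eif4a-ps4 (light) in each library. The KO bars hold no pseudogene reads, the het and wt bars hold 103 to 188 CPM of them, and the full bars range from 890 to 1112 CPM.

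Eif4a3, a helicase of the same family that belongs to the exon junction complex, rose modestly. It had 270 and 268 CPM in KO, 231 and 240 CPM in het, and 209 and 207 CPM in wt, and the 3 groups did not overlap. The KO against wt difference was 0.37 ± 0.10 (adjusted p = 0.00758). It fell just short without KO replicate 1 (adjusted p = 0.0519) or wt replicate 5 (0.0551). Of its 50-base stretches 24.4% also occur in other genes.

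Of the 3 tested eIF4E binding proteins, Eif4ebp2 fell strongly. Its protein, 4E-BP2, is a translational repressor that sequesters eIF4E. It had 24.7 and 25.3 CPM in KO, 85.9 and 82.4 CPM in het, and 92.1 and 81.3 CPM in wt. KO was 3.48-fold lower than wt (-1.80 ± 0.16, adjusted p = 2.71e-08), while het and wt overlapped. Eif4ebp1, the paralog with the same role, had 154 and 161 CPM in KO, 153 and 143 CPM in het, and 145 and 137 CPM in wt and was not called (0.16 ± 0.12, adjusted p = 0.32), except with library size alone (0.00113). Eif4enif1, which carries eIF4E into the nucleus, lay at the threshold and was not called (-0.43 ± 0.17, adjusted p = 0.0526). It was called lower in 7 of 19 alternatives, among them limma-voom (0.0448), the fit with only the 2 groups compared (0.0427) and the fit with the length trend taken out (0.0181). It was not called with DESeq2 (0.289), with library size alone (-0.07, 0.756) or without any 1 of the 4 KO and wt libraries.

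Eif5b, the GTPase that joins the large subunit to the small one, fell as well. It had 75.8 and 74.5 CPM in KO, 184 and 216 CPM in het, and 204 and 198 CPM in wt. KO was 2.68-fold lower than wt (-1.42 ± 0.12, adjusted p = 1.34e-08), and het and wt overlapped. Eif6, which keeps free large subunits apart from small ones, had a log2 fold change of -0.02 and was not called.

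Per length, the most abundant factor genes were Eef1a1, Eif5a and Eef2. In CPM per kb of annotated exon, Eef1a1 averaged 991 ± 22.8 in KO, 1724 ± 3.23 in het and 1879 ± 326 in wt (SD, n = 2 each). On the same scale Eif5a averaged 484 ± 40.2 in KO, 411 ± 41.4 in het and 414 ± 22.3 in wt, and Eef2 averaged 249 ± 8.95 in KO, 438 ± 0.234 in het and 423 ± 40.8 in wt. Eif5a exceeded Eef2 in KO by more than their SDs, while in het and wt the 2 lay within their spread.

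Eef1a1, the carrier of aminoacyl-tRNA to the ribosome, had 2429 and 2510 CPM in KO, 4302 and 4291 CPM in het, and 4110 and 5258 CPM in wt. Both KO libraries lay below all others (-0.92 ± 0.10, adjusted p = 8.78e-07). Much of its sequence, 60.6% of its 50-base stretches, also occurs in other genes, and adding the reads of its pseudogene copies left the difference at -0.92. Eef2, the translocase, had 847 and 805 CPM in KO, 1456 and 1457 CPM in het, and 1311 and 1502 CPM in wt (-0.77 ± 0.09, adjusted p = 1.38e-06), again with KO lowest. Eef1b2, a guanine nucleotide exchange subunit of eEF1, also fell (-0.53 ± 0.12, adjusted p = 0.00237), a call lost without wt replicate 5 (-0.42, adjusted p = 0.0659) and with library size alone (-0.17, adjusted p = 0.293).

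The other exchange subunits Eef1d and Eef1g, and Eef1e1, a scaffold protein of the tRNA synthetase complex, were not called, with log2 fold changes from -0.19 to 0.18. Eif5a, whose hypusine-carrying product relieves stalled ribosomes, had 1084 and 1219 CPM in KO, 1047 and 908 CPM in het, and 1023 and 948 CPM in wt. KO was highest, but the difference of 0.22 ± 0.10 did not pass (adjusted p = 0.0791). It was called higher in 4 of 19 alternatives: without het replicate 2 (adjusted p = 0.0496), with no filter on low counts (0.0148), with the length trend taken out (0.0116) and with library size alone (7.41e-05). Over all genes edgeR called 32.0% in KO against wt and gave 4573 of 10952 an unadjusted p under 0.05. None of the 4 tested enzymes that modify elongation factors was called by edgeR, and 0 had an unadjusted p under 0.05. The smallest adjusted p among them belonged to Eef1akmt2, an eEF1A lysine methyltransferase, with 23.2 and 29.6 CPM in KO, 17.7 and 19.1 CPM in het, and 23.0 and 17.0 CPM in wt (0.37 ± 0.25, adjusted p = 0.28).

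**Figure D4:**
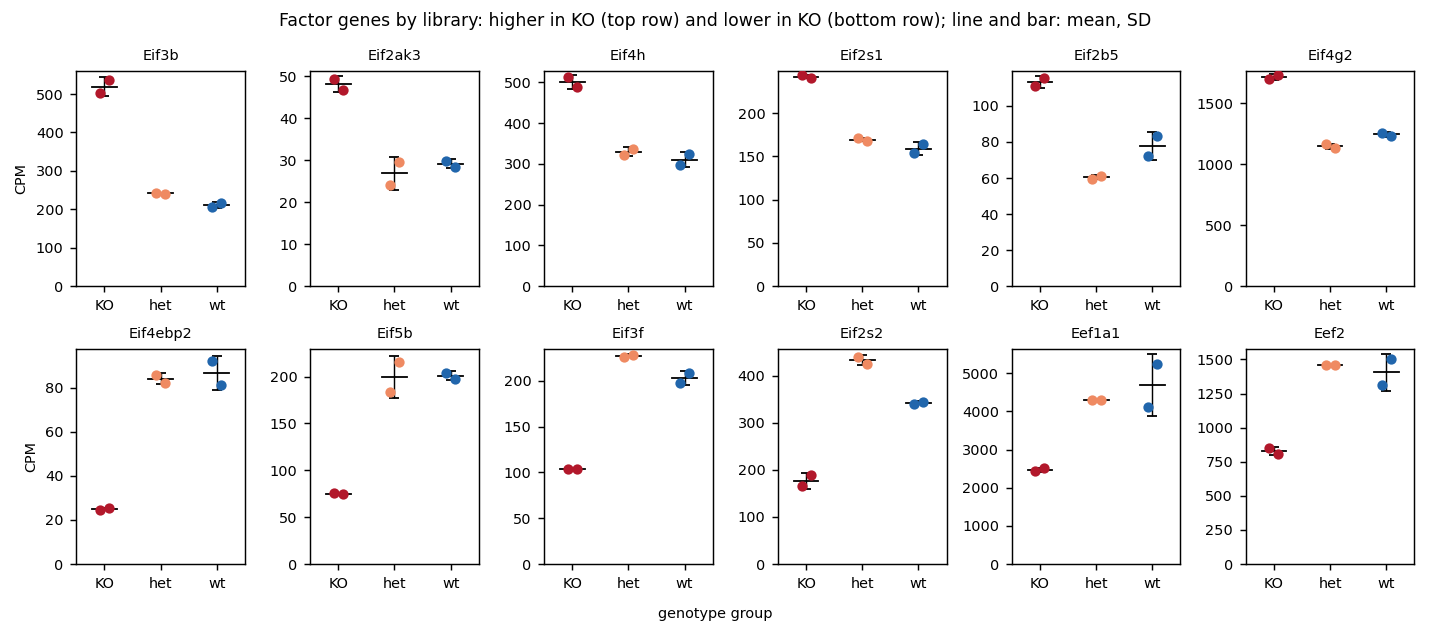
Level in CPM (y axis, from 0) of 12 called factor genes in the 2 libraries of each genotype group, with group mean and SD. In the top row both KO points lie above all het and wt points, and in the bottom row both lie below.

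Messages with a terminal oligopyrimidine (TOP) motif, a run of pyrimidines at the start of the mRNA, are translated under control of mTORC1, and many encode parts of the translation apparatus. A textbook list of TOP mRNAs held 15 tested factor genes. In KO against wt, edgeR called 8 of the 15 lower and 0 higher, and 7 were not called. Over all genes it called 17.3% lower and 14.7% higher. It gave 9 of the 15 an unadjusted p under 0.05, and 4573 of all 10952 genes. The median log2 fold change of the 15 was -0.34. The 8 called lower were Eef1a1, Eef1b2, Eef2, Eif2a, Eif3a, Eif3f, Eif3h and Eif4a2. Of the other 46 tested factor genes 12 rose and 5 fell, with a median of 0.19. In KO against het the median was -0.23 on the TOP list and 0.11 off it, and in het against wt it was 0.04 on the list and -0.00 off it. DESeq2 called 5 of the 15 lower, limma-voom 7 and edgeR with no filter on low counts 5, each with 0 higher. Over all genes they called 10.8%, 18.2% and 10.3% lower, and 8.65%, 13.9% and 10.8% higher. Without KO replicate 2, wt replicate 4 or wt replicate 5 edgeR called 4 lower in each case, and without KO replicate 1 it called 5. The share of all genes called lower was also smaller in each of these fits than in the main fit. With library size alone, 5 of the 15 were called higher and 3 lower, against 35.4% and 9.44% of all genes. The median of the 15 was then 0.03, against 0.55 for the other factor genes and 0.35 for all genes. The list was drawn up with earlier results of these data known, so its counts are a description.

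**Figure D5:**
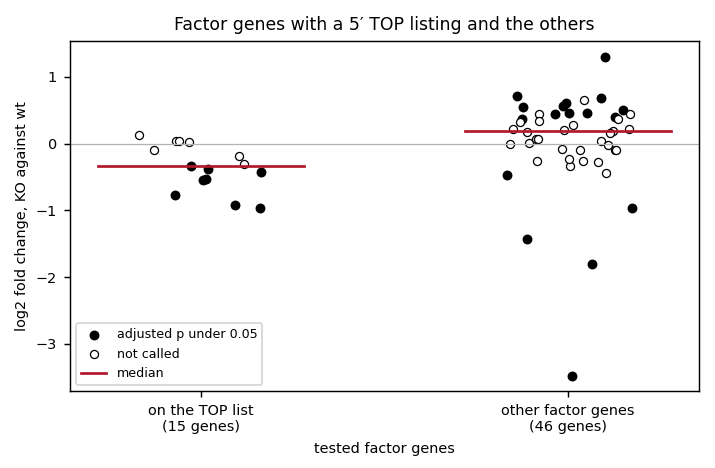
Log2 fold change of KO against wt (y axis) for the 15 tested factor genes on the TOP list and the other 46, with filled points for an adjusted p under 0.05 and a line at the median. The medians are -0.34 and 0.19, and the TOP list holds 8 filled points below 0 and 0 above. Over all genes 17.3% were called lower and 14.7% higher. With library size alone as scaling the TOP median is 0.03 and the other 0.55.

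The hexamer CACGTG, an E-box that Myc and other basic helix-loop-helix factors bind, was looked for in the 250 bases upstream of RefSeq gene starts, of which a gene may have more than 1. It reads the same on both strands. RefSeq promoter windows (GRCm38.p6) were found for 49 of the 65 factor genes. Of the 49, 11 held the hexamer, 22.4%, against 6.86% of 27025 genes with a window. The 27025 were not limited to the genes tested here, and the share over tested genes was not measured. For Eif1b, Eif4e, Eif4g1 and Eif5a the hexamer lay inside the gene by its GENCODE coordinates, upstream of a later RefSeq start. Among the 11, 5 were called in KO against wt, 45.5%. The share was 43.2% of the 37 tested genes whose window lacked the hexamer, and 32.0% of all genes. The stretches are shown for the 4 called genes with the hexamer before the GENCODE start, because they moved in opposite directions. Each reads along the strand of its gene, with the hexamer in capitals.

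Eif4a1 (chr11:69672587-69672632, minus strand): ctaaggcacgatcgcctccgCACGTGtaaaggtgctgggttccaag

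Eif4h (chr5:134639480-134639525, minus strand): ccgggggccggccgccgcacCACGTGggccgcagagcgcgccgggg

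Eef2 (chr10:81176568-81176613, plus strand): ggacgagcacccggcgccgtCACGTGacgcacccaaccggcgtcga

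Eif3f (chr7:108934327-108934372, plus strand): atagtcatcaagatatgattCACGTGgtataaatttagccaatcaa

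Eif4a1 and Eif4h rose in KO, the first of them under the limit on its pseudogene given above, and Eef2 and Eif3f fell. The fifth called gene, Eif4e, rose, and it held 2 hexamers, both inside the gene by its GENCODE coordinates. The other 6 genes with the hexamer, Eif4g1, Eif5a, Eif5a2, Eif1b, Eif3k and Eef2k, were not called in KO against wt. The median log2 fold change of KO against wt was 0.19 over the 11 genes with the hexamer and 0.03 over the 37 tested genes with a window that lacked it. The gap between these medians rested on single libraries: they were 0.0423 and 0.0331 without KO replicate 1, 0.0801 and 0.0554 without wt replicate 5, and 0.0530 and -0.0369 without wt replicate 4. With library size alone they were 0.55 and 0.40. Myc, named after its values were seen, had 152 and 160 CPM in KO, 114 and 122 CPM in het, and 60.1 and 56.1 CPM in wt. It was called higher in het than in wt (1.02 ± 0.14, adjusted p = 0.00112), a call lost without wt replicate 4. With 0.173% of all genes called in het against wt, the absence of calls among these 11 genes says nothing about them. A match to these letters is not a binding site, and nothing about Myc follows from it.

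In het against wt, 0 factor genes were called higher and 1, Eif3j1, lower, against 0.128% of all genes higher and 0.0457% lower. The edgeR test gave 5 of the 61 factor genes an unadjusted p under 0.05, and 893 of all 10952 genes. DESeq2 and limma-voom each called 0 factor genes higher and 1 lower. Over all genes they called 0.175% and 0.0639% higher, and 0.124% and 0.0365% lower. The libraries of het lay wholly above those of wt for 13 factor genes and wholly below for 10, where the shares over all genes were 19.2% and 18.8%. The median log2 fold change of the factor genes was -0.00, against 0.01 over all genes. With no filter on low counts, Eif3j2 was also called, higher (0.59, adjusted p = 0.0425). The genes that changed most in KO apart from Eif3j1 had small differences here: the log2 fold change of het against wt was 0.20 ± 0.10 for Eif3b, -0.05 ± 0.16 for Eif4ebp2 and -0.00 ± 0.12 for Eif5b. For Eif2s2 it was 0.34 ± 0.10, opposite in sign to KO, but it did not pass (adjusted p = 0.272).

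In KO against het, which uses the same KO libraries, 11 factor genes were higher, 12 lower and 38 not called, where 31.2% of all genes were called (13.9% higher and 17.2% lower). With library size alone 30 were called higher and 8 lower, against 36.1% of all genes higher and 9.27% lower. The libraries of KO lay wholly above those of het for 22 factor genes and wholly below for 25, where the shares over all genes were 31.5% and 33.0%. The log2 fold changes for Eif3b were 1.10 ± 0.10 against het and 1.30 ± 0.10 against wt. For Eif2s2 they were -1.29 ± 0.10 against het and -0.96 ± 0.10 against wt, and for Eif2b5 0.91 ± 0.14 against het and 0.55 ± 0.14 against wt. Eif4g1 was called higher (0.31 ± 0.11, adjusted p = 0.0438) and Eif4g3, its paralog, lower (-0.41 ± 0.14, adjusted p = 0.0262) in this comparison but not in KO against wt. The call of Eif4g1 was lost in 6 of 19 alternatives, including DESeq2 (0.0635) and the fits without KO replicate 1, het replicate 2 or het replicate 3 (0.446, 0.0802 and 0.184). The call of Eif4g3 was lost in 8 of 19, including DESeq2 (0.184), library size alone (0.867) and the fits without KO replicate 2, het replicate 2 or wt replicate 4 (0.189, 0.177 and 0.0707). Eif3j2, Eif4a3, Eif2a and Eif3h were called in KO against wt and not here.

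Other genes of the translation machinery and its control, taken from a list of 52, showed a similar mixture. Of 51 tested, 10 rose and 8 fell in KO against wt, 35.3% in all, which is close to the 32.0% of all genes. Their median log2 fold change was 0.11, and 0 were called by edgeR in het against wt (6 at an unadjusted p under 0.05). Over all genes 0.173% were called in that comparison, and 893 of 10952 had an unadjusted p under 0.05 by edgeR. Pabpc1, the main poly(A)-binding protein that joins the mRNA's tail to eIF4G, had 262 and 266 CPM in KO, 934 and 964 CPM in het, and 826 and 922 CPM in wt (-1.73 ± 0.09, adjusted p = 1.52e-11). Pabpc4, its relative, fell by 1.79 on the log2 scale (adjusted p = 5.32e-08). Pdcd4, an inhibitor of the eIF4A helicase, fell by 2.06 (adjusted p = 7.43e-06), with 6.73 and 6.93 CPM in KO, 22.7 and 21.6 CPM in het, and 26.4 and 30.9 CPM in wt. In each of these genes KO lay below both other groups.

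Larp1, which binds the start of TOP messages, fell by 0.66 (adjusted p = 1.76e-04), and Tpt1, itself the product of a TOP message, fell by 1.17 (adjusted p = 1.73e-08). Among those that rose were Hbs1l, a ribosome rescue factor (0.83 ± 0.15, adjusted p = 2.76e-04), Abce1, which recycles ribosomes (0.56 ± 0.12, adjusted p = 0.00101), and Ppp1r15b, which directs dephosphorylation of eIF2 alpha (0.76 ± 0.16, adjusted p = 0.00106). In KO against wt, edgeR called none of the 8 mTORC1 genes and none of the 8 genes of hypusine and diphthamide synthesis. Over all genes it called 32.0%. At an unadjusted p under 0.05 by edgeR were 1 and 2 of them, against 4573 of all 10952 genes. The log2 fold changes of the mTORC1 genes ran from -0.26 to 0.52.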

How the data were processed

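RNA from 6 libraries of sorted cardiac endothelial cells was amplified with SMART-Seq v4 and made into Nextera XT libraries, per the labels' protocols, which disagree on single or paired reads. The authors deposited a table of expected counts, which RSEM estimates and which can hold fractions of a read. The submitters' processing notes name CASAVA, cutadapt, RSEM and build GRCm38. Because RSEM splits ambiguous reads between genes, near-identical copies carry uncertain values. The kit does not mark strand.

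Expected counts were rounded to whole numbers (4.29% to 5.87% of values per library were not whole). Symbols and positions came from GENCODE M21, which matched 97.9% of identifiers. In R 4.3.3, edgeR 4.0.16 was run with TMM scaling, filterByExpr with a minimum count of 10, and a robust quasi-likelihood fit of all 6 libraries, which left 3 residual degrees of freedom. Tests were two-sided, with Benjamini-Hochberg adjustment over the 10952 genes tested, and adjusted p-values with no tool named are from edgeR. CPM use the TMM-scaled library sizes, and sums of CPM give no test of their own. With 2 libraries per group, an exact permutation test over libraries cannot reach 0.05, so none was used. The procedure was tested on simulated counts.

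Members, lists and comparisons were chosen with earlier results of these data known. Values per library are given by rule: Eif3j1 and Eif3j2, genes called in het against wt, the genes with the smallest adjusted p of each complex, the 5 largest rises and falls, the 3 highest levels per kb, and the largest rise and fall in KO against het. Eif4a1, Eif4e, Eif4ebp1 and Eif2ak4 were added after their values were seen. Sharing of sequence was measured as the percentage of 50-base stretches of a gene's longest protein-coding transcript found, on either strand, in transcripts of other genes. Alternatives covered scaling, filters, DESeq2 1.42.0, limma-voom (limma 3.58.1), the libraries in the fit, thinning to the smallest total, trends with GC content and exon length, and leaving out each library. After the data were seen, Eif3j1 and Eif3j2 were summed, and pseudogene copies were summed with their parent genes.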

Additional observations from a re-analysis of the deposited data

How the results depend on the processing

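With library size alone in place of TMM scaling, the median of all genes moved to 0.35 in KO against wt and 0.36 in KO against het. Factor genes called higher then numbered 31 in KO against wt and 30 in KO against het, where 35.4% and 36.1% of all genes were called higher. Those called lower in KO against wt numbered 7, where 9.44% of all genes were called lower. Leaving out each library in turn gave 7 to 14 factor genes higher and 8 to 14 lower in KO against wt, 8 to 13 higher and 10 to 13 lower in KO against het, and 0 higher and 0 to 1 lower in het against wt. With no filter, 1 was called higher in het against wt. With Eif3j1 and Eif3j2 summed, 0 were called lower there.

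For Eif3j2 in KO against het, which was near 0 and not called, the log2 fold change of -0.02 turned to 0.36 with library size alone, 0.0379 with no filter, 0.0147 with DESeq2, 0.00116 with only the 2 groups in the fit and 0.0691 with the length trend taken out, and ran from -0.13 to 0.0818 when a library was left out. In KO against wt, with library size alone, Eif3h had 0.0257 and Eif4g3 0.141, both turned in sign and not called. Over 42 named genes and up to 20 settings in that comparison, 737 values kept their direction and side of the threshold, 49 lost the call, 21 gained it and 2 turned in sign.

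No paired analysis was possible because KO and het share 1 replicate number and wt shares none with them. With 2 libraries a group the spread behind every test is estimated from 3 residual degrees of freedom. The makeup of the KO libraries is confounded with genotype, and reads of near-identical genes were divided by the authors' counting.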
